A study of Mus musculus with 6 samples.

Results

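Plagl1 and 34 other imprinted mouse genes were followed in the forming root end of the mandibular first molar. Members were the rows of the deposited gene count table whose symbol was on a list of 35 imprinted genes, and 35 of 35 were present among its 22287 genes. Of these, 32 passed the filter on low counts and were tested, and 3 (Magel2, Phlda2 and Klf14) did not. All 6 libraries were of C57BL/6 pups at postnatal day 7.5 that had received tamoxifen at postnatal day 3.5. The 3 control libraries (replicates 2, 3 and 5) were Arid1a fl/fl without Cre, and the 3 mutant libraries (replicates 3, 4 and 5) were Gli1-CreER;Arid1a fl/fl. Both groups therefore carried the loxP-flanked Arid1a alleles and had tamoxifen, and the groups differ by Gli1-CreER itself as well as by the loss of Arid1a in cells that express Gli1. Effects of CreER and of Arid1a loss cannot be told apart. The labels do not say whether a library came from 1 pup or from pooled teeth. Xist and Ddx3y differed within each group (below), so the libraries of a group were not all repeats of the same sample. The p-values refer only to how these libraries vary, and part of that may be technical variation.

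An imprinted gene is read from only the maternal or only the paternal chromosome. Which copy is silent is set in the germ line by DNA methylation at control regions, and it is kept after fertilisation by factors such as Zfp57, which binds the methylated sequence TGCCGC. Many paternally expressed genes promote growth before and after birth and many maternally expressed genes restrain it, and most are turned down as tissues mature. Plagl1 (also called Zac1) is a paternally expressed zinc finger transcription factor linked to cell cycle arrest, and other imprinted genes have been described as its targets. The series title names Plagl1 together with Arid1a and Hedgehog signalling in the arrest of root progenitors. The members are known to be expressed from the paternal copy for 20 genes and from the maternal copy for 13, while Gnas and Blcap depend on the isoform. These assignments are background and can depend on the tissue, as for Ube3a in neurons. The counts do not separate the parental alleles, so which copy is used in this tissue was not measured.

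Promoter windows from RefSeq (build GRCm38.p6, 250 bases before to 50 after the start of a transcript) were at hand for 29 of the 35 members, with 45 windows in all. The Zfp57 motif TGCCGC, searched on both strands, was present in at least 1 window of 11 of these 29 genes (37.9%), and in 13.1% of all genes with a window. By window the shares were 26.7% of the 45 and 11.6% of all 32851. A window of the members held a median of 14 CG pairs, against 7 over all windows. The palindrome GGGGCCCC, the core of a G-rich element described for Plagl1, was in the windows of 2 members, Peg3 and Usp29, or 6.90% of the 29 against 1.25% of all genes. The Gli motif GACCACCCA was in 0 of the 45 windows and in 0.253% of all. A match is only a run of letters, and no binding or methylation was measured. The 4 windows below are shown because they hold these motifs at a transcript start of Plagl1 itself, Grb10, Zdbf2 or Peg3. Grb10 and Zdbf2 ranked 2 and 8 by p-value among the 32 tested members. Other holders of TGCCGC ranked low, such as Igf2 (26), Snrpn (29) and Nap1l5 (24). Cobl and Peg12 ranked 3 and 4 with 0 copies in their windows. A link between motif and change was not tested. Capitals mark TGCCGC or its reverse complement in the first 3 and GGGGCCCC in the fourth. Positions are chr10:13090582-13090881 on the plus strand for Plagl1, chr11:12037371-12037670 on the minus strand for Grb10, chr1:63200108-63200407 on the plus strand for Zdbf2 and chr7:6730370-6730669 on the minus strand for Peg3, each written in the direction of the gene.
Plagl1: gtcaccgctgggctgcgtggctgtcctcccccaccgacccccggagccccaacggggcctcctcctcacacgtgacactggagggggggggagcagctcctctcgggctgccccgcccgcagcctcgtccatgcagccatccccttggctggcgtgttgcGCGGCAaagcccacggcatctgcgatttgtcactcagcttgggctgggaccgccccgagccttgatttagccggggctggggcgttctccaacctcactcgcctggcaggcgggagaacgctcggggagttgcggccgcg
Grb10: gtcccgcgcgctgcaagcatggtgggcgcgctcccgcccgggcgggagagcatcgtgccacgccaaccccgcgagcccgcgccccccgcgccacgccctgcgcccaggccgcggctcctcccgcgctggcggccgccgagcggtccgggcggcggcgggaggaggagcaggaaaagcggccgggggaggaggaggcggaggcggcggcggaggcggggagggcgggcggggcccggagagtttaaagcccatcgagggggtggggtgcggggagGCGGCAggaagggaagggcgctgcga
Zdbf2: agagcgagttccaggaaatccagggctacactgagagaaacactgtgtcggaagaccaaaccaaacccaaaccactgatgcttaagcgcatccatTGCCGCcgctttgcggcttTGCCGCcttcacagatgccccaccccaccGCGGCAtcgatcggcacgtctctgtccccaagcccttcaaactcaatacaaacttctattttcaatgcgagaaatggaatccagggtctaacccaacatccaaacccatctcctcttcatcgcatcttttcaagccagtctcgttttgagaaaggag
Peg3: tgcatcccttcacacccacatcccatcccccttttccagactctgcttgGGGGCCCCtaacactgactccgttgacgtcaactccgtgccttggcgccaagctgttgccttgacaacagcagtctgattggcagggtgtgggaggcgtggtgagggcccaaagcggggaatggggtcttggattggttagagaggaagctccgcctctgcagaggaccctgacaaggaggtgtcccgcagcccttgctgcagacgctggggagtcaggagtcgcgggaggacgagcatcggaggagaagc

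The Plagl1 window lies inside the annotated gene, downstream of its first annotated base. The Zdbf2 window lies upstream of the annotated gene, which starts at 63273265. The Zdbf2 window at that start, 63273019 to 63273318, held 0 copies of TGCCGC. The Peg3 window overlaps that of Usp29, which is read from the opposite strand: the annotated starts of these neighbours are 147 bases apart, so both share the GGGGCCCC match. Peg10 and Sgce likewise start 99 bases apart on opposite strands of chromosome 6.

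Libraries held 20453247 to 24255352 estimated counts, so that 1 count was worth 0.0386 to 0.0544 CPM, the count scaled to the size of the library. Arid1a, the targeted gene, was at 210, 202 and 204 CPM in control replicates 2, 3 and 5 and at 120, 134 and 130 CPM in mutant replicates 3, 4 and 5 (log2 fold change -0.68, standard error 0.07, adjusted p = 0.0129). Odontoblast markers were abundant in every library (summed 48491 to 59374 CPM over 7 genes), and Myod1, Myog and Pax7 of the muscle list were absent from the file. Summed markers of other cell types differed between the groups. Those of the enamel epithelium (9 of 9 in the file) were at 179326 to 278498 CPM in controls and 68750.5 to 114458 CPM in mutants. Erythroid markers (8 of 9) were at 1423 to 1948 CPM and 2367 to 5511 CPM, with the highest sums in mutant replicates 4 and 5. Markers of the follicle and periodontal ligament (7 of 8) were at 610 to 756 CPM and 959 to 1142 CPM, and those of dividing cells (6 of 6) at 121 to 149.5 CPM and 168 to 244 CPM. Markers of the apical papilla and dental mesenchyme (9 of 9) were at 475 to 523 CPM and 575 to 599 CPM. Sums for macrophages (193 to 252 and 273 to 348 CPM), endothelium (303 to 346 and 349 to 362 CPM), Schwann cells and neurons (73.4 to 81.0 and 85.7 to 99.0 CPM) and cartilage (104 to 134 and 136 to 199 CPM) were also higher in every mutant, while those for pericytes, muscle and odontoblasts overlapped. Xist was at 799 to 1298 CPM in control replicate 3 and mutant replicates 3 and 5 and at 2.39 CPM or less in the others. Ddx3y, a Y-linked gene, was at 0 to 0.176 CPM in the former libraries and at 52.3 to 62.6 CPM in the latter. Each group thus held libraries of both sexes. In whole tissue, fewer cells of a type and less RNA per cell cannot be told apart, and the part that these shifts have in the results below was not tested.

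Compared per kilobase of exon, the members spanned a wide range of levels in controls. H19, a maternally expressed long noncoding RNA, was highest at 127 CPM per kb. Cd81, a tetraspanin gene, followed at 107 CPM per kb and Gnas, which encodes a stimulatory G protein subunit, at 90.4 CPM per kb. Igf2 was at 81.9 CPM per kb and Mest at 54.1 CPM per kb. Plagl1 was eighth, at 12.7 CPM per kb in controls and 16.0 in mutants. At the low end, Rtl1, Usp29, Klf14, Phlda2 and Magel2 stood between 0.0276 and 0.115 CPM per kb. Magel2 had 0 to 10 counts in a library, Phlda2 0 to 4 and Klf14 4 to 16. Gaps between neighbours in this order are often small beside the spread between libraries: Igf2 at 413 to 533 CPM in controls had a wider relative range than its distance to Gnas.

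**Figure D1:**
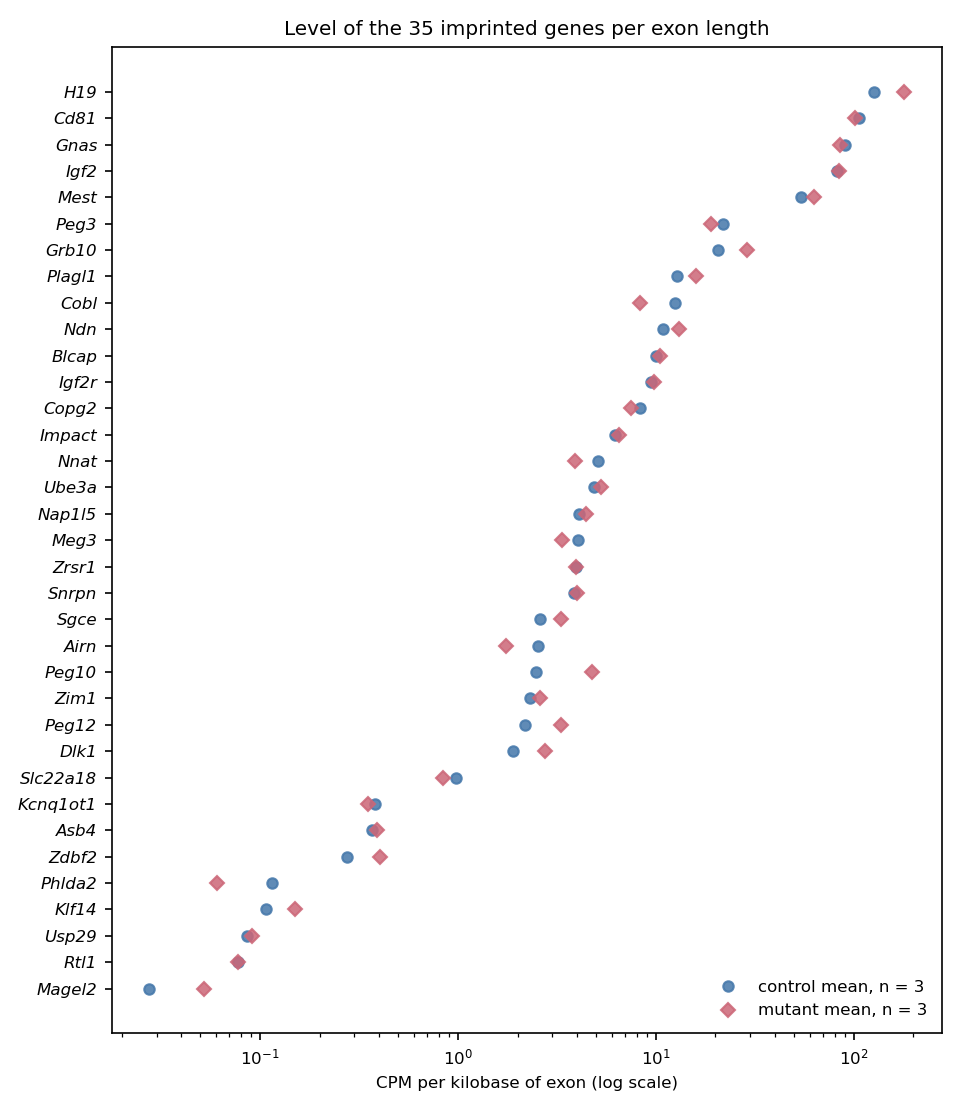
Mean level of the 35 imprinted genes in CPM per kilobase of exon (horizontal log scale), with controls as circles and mutants as diamonds, n = 3 libraries each. Levels run from 0.0276 (Magel2) to 127 (H19) in controls, and the group means of Peg10 and Phlda2 lie well apart, Phlda2 with 0 to 4 counts in a library.

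Across the members, 1 of 32 tested genes was called higher in the mutants and 0 were called lower at an adjusted p under 0.05. Of all 17305 genes tested, 1.86% were called, 0.659% higher and 1.2% lower. DESeq2 called 4 members higher and 1 lower, beside 366 higher and 503 lower of all 17305 genes. The members had a median log2 fold change of 0.06, beside 0.01 over all genes, and 21 of 32 had a positive value, beside 52% of all genes. At an unadjusted p under 0.05, 9 members were higher and 1 was lower, while 15% of all genes passed it, 7.13% higher and 7.83% lower. Libraries of the groups did not overlap for 8 members that were higher and 2 that were lower, against 10.6% and 10.8% of all genes (21.3% in either direction). Genes known to use the paternal copy (19 tested) had a median of 0.09 and included 6 with higher libraries that did not overlap. Those known to use the maternal copy (11 tested) had a median of 0.05, with 2 higher and 2 lower. Log2 fold changes ran from -0.57 for Cobl to 0.93 for Peg10.

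**Figure D2:**
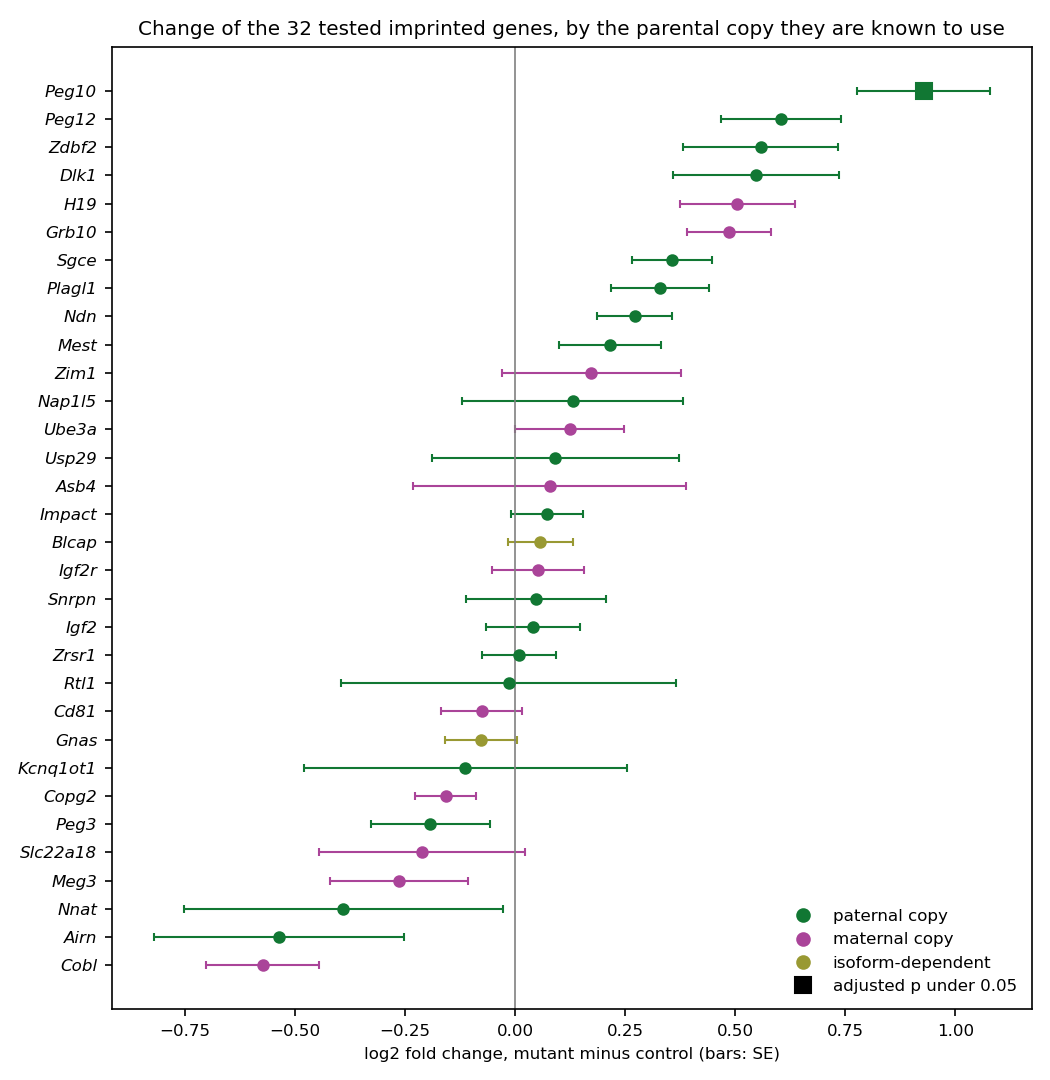
Log2 fold change (mutant minus control, horizontal axis) of the 32 tested members with its SE, coloured by the parental copy each gene is known to use. Peg10 (0.93) is the only square, the mark of an adjusted p under 0.05, and Cobl (-0.57) is at the bottom.

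Plagl1, on chromosome 10 from 13060504 to 13131694, had 100.1, 91.2 and 107 CPM in control replicates 2, 3 and 5. In mutant replicates 3, 4 and 5 it had 106, 135 and 134 CPM. Mutant replicates 4 and 5 were above every control, and mutant replicate 3 was within the control range, so the groups overlapped. The difference (log2 fold change 0.33, standard error 0.11, unadjusted p = 0.0186, adjusted p = 0.210) did not pass across all genes. When mutant replicate 3 was left out the log2 fold change was 0.43 (adjusted p = 0.0684), and with library totals as the only scaling it was 0.53 (adjusted p = 0.0468), a scaling that moved the median of all genes from 0.01 to 0.21. It was 0.27 without mutant replicate 4 (adjusted p = 0.477), 0.27 with the replicate block (adjusted p = 0.513) and 0.10 with the erythroid level as a term (adjusted p = 0.920). In the block fit only replicates 3 and 5 inform the contrast, since control replicate 2 and mutant replicate 4 have no counterpart. Erythroid and epithelial sums did not overlap between the groups, so fits with these terms poorly separate marker level from genotype. The members whose pattern over the 6 libraries lay closest to that of Plagl1, by the distance between centred log2(CPM + 1) values, were Mest (0.260), Ndn (0.281) and Sgce (0.287). Its relatives of the PLAG family, Plag1 and Plagl2, showed small negative values that did not pass (log2 fold change -0.19, adjusted p = 0.558, and -0.10, adjusted p = 0.735), so 0 of 3 family genes were called.

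**Figure D3:**
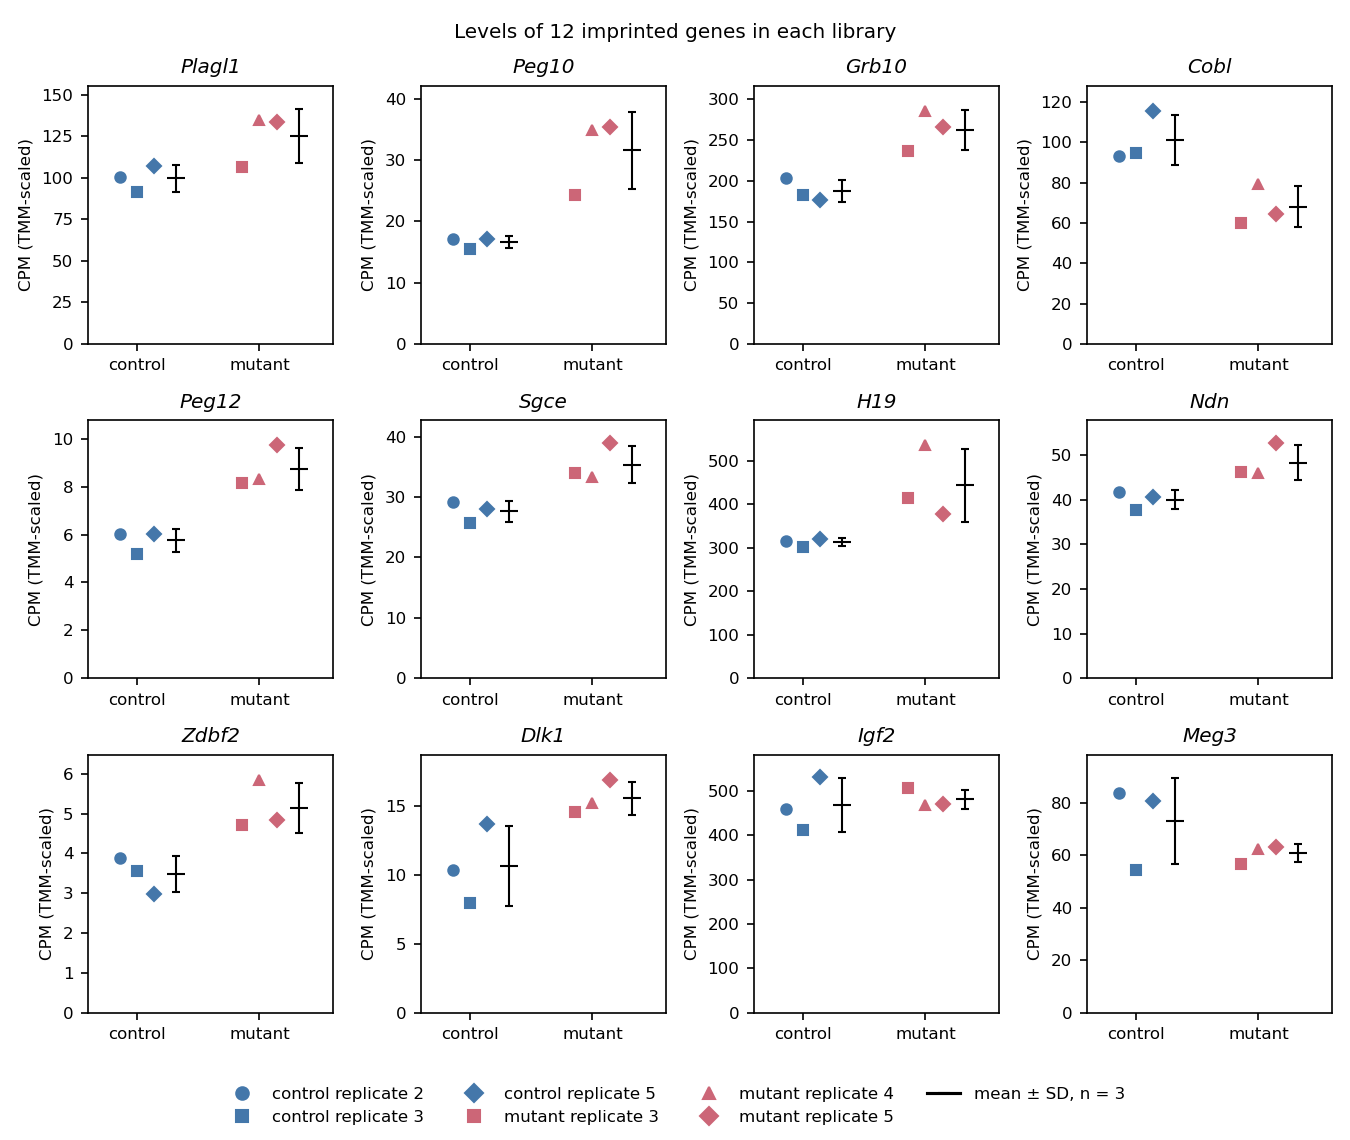
CPM of 12 imprinted genes in each of the 6 libraries (vertical axes start at 0), with controls in blue, mutants in red, a symbol for each replicate number and bars for the mean and SD of 3 libraries. All 3 mutants sit above all 3 controls for Peg10, Grb10, Peg12, Sgce, H19, Ndn, Zdbf2 and Dlk1 and below them for Cobl, while the groups overlap for Plagl1, Igf2 and Meg3.

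Peg10 and its neighbour Sgce share a promoter region on chromosome 6 and are both paternally expressed. Peg10 derives from a retrotransposon and is needed for the placenta; it lies from 4747306 to 4760517. It had 17.2, 15.4 and 17.2 CPM in the controls and 24.3, 35.01 and 35.5 CPM in mutant replicates 3, 4 and 5. Every mutant was above every control, and mutant replicate 3 was the lowest of the mutants. Peg10 rose 1.90-fold (log2 fold change 0.93, standard error 0.15, adjusted p = 0.0325). The call was lost without any of control replicates 2, 3 and 5 (adjusted p = 0.0959, 0.135 and 0.102) and without mutant replicate 4 or 5 (0.108 and 0.0844), while the log2 fold change stayed between 0.84 and 1.09 over all 6 such fits. With the erythroid level as a term in the model it was 0.51 (adjusted p = 0.548), with the epithelial level 0.90 (adjusted p = 0.894) and with the Xist level 0.98 (adjusted p = 0.0637); with the replicate number as a block it was 0.85 (adjusted p = 0.112).

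Sgce, which encodes epsilon-sarcoglycan, had 29.1, 25.7 and 28.0 CPM in controls and 33.9, 33.3 and 38.9 CPM in mutants. Its groups did not overlap either, but it did not pass (log2 fold change 0.36, standard error 0.09, adjusted p = 0.107). Peg10 counts per Sgce count were 0.590, 0.601 and 0.614 in the controls, a narrow band, and 0.718, 1.05 and 0.913 in mutant replicates 3, 4 and 5. This ratio was chosen after its values were seen and was not tested. Asb4, a maternally expressed gene further along the cluster, had 0.973, 2.06 and 1.31 CPM in controls and 1.62, 1.47 and 1.49 CPM in mutants, and the groups overlapped (adjusted p = 0.937).

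Growth is held in balance by Igf2, a paternally expressed growth factor gene, and by 3 maternally expressed genes: H19, its noncoding neighbour, Igf2r, a receptor that clears the Igf2 protein, and Grb10, an adaptor that damps insulin and IGF receptor signalling. Grb10, on chromosome 11 from 11930508 to 12038683, had 203, 182 and 177 CPM in controls and 236, 285 and 266 CPM in mutants. All mutants were above all controls, and the difference was just outside the threshold (log2 fold change 0.49, standard error 0.10, adjusted p = 0.0520). It was called under 5 of the 19 alternatives, among them the fit without mutant replicate 3 (adjusted p = 0.0437) and DESeq2 (adjusted p = 0.000400). With the erythroid level as a term the log2 fold change of Grb10 was 0.23 (adjusted p = 0.675), and with the replicate block it was 0.48 (adjusted p = 0.202).

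H19, from 142575529 to 142578143 on chromosome 7, had 315, 302 and 320 CPM in controls and 415, 537 and 377 CPM in mutant replicates 3, 4 and 5. The controls lay close together, and mutant replicate 4 was well above the others (log2 fold change 0.50, standard error 0.13, adjusted p = 0.111). Igf2 showed no such shift, with 460, 413 and 533 CPM in controls and 507, 469 and 470 CPM in mutants (log2 fold change 0.04, standard error 0.11, adjusted p = 0.903). Igf2r had 93.4, 88.1 and 81.4 CPM in controls and 80.1, 103 and 89.7 CPM in mutants, which overlapped as well (adjusted p = 0.868). Igf2r overlaps the antisense RNA gene Airn, and without stated strand information their reads cannot be told apart.

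Cobl encodes an actin nucleator and lies in the Grb10 cluster, 426 kb from Grb10 between starts. It moved the other way, with 93.5, 94.7 and 116 CPM in controls and 59.9, 79.5 and 64.7 CPM in mutants. No mutant reached the lowest control, and the difference did not pass (log2 fold change -0.57, standard error 0.13, adjusted p = 0.0773). With the epithelial marker level as a term the log2 fold change of Cobl was -0.026 (standard error 0.23, adjusted p = 0.987). That level did not overlap between the groups, so the fit poorly separates it from genotype. With DESeq2 Cobl was called lower (adjusted p = 0.00238). Grb10 counts per Cobl count were 2.17, 1.92 and 1.53 in the controls and 3.94, 3.59 and 4.11 in the mutants, a ratio chosen after its values were seen and not tested.

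In the cluster on chromosome 7 that is linked to Prader-Willi syndrome in humans, Peg12, Ndn, Magel2 and Snrpn are paternally expressed and Ube3a, a ubiquitin ligase gene, is maternally expressed in neurons. Peg12, a Frat family gene linked to Wnt signalling, had 6.03, 5.20 and 6.04 CPM in controls and 8.15, 8.33 and 9.75 CPM in mutants. Ndn, which encodes the growth-restraining protein necdin, had 41.7, 37.7 and 40.7 CPM in controls and 46.3, 45.9 and 52.8 CPM in mutants. For each of these neighbours the mutants were all above the controls, but neither passed (Peg12 log2 fold change 0.60, standard error 0.14, adjusted p = 0.0795; Ndn 0.27, standard error 0.09, adjusted p = 0.175). Snrpn, a splicing factor gene that shares its locus with Snurf, was at 8.38 ± 0.384 CPM in controls and 8.64 ± 1.69 in mutants (SD, n = 3, adjusted p = 0.925). Ube3a was at 101 ± 15.3 CPM and 110 ± 10.0 CPM (SD, n = 3, adjusted p = 0.713). Within this cluster the non-overlapping shift was thus seen in Peg12 and Ndn and not in Snrpn or Ube3a; a difference between them was not tested.

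On chromosome 12, Dlk1 encodes a paternally expressed membrane protein that keeps precursor cells from maturing, and Meg3 is a maternally expressed long noncoding RNA whose start lies 88.2 kb away. Dlk1 had 10.4, 7.96 and 13.7 CPM in controls and 14.6, 15.3 and 16.9 CPM in mutants (log2 fold change 0.55, standard error 0.19, adjusted p = 0.218). The mutants were all above the controls, by a narrow margin over control replicate 5. Meg3 had 84.0, 54.3 and 80.9 CPM in controls and 56.9, 62.6 and 63.1 CPM in mutants, so that control replicate 3 was the lowest library of all (log2 fold change -0.26, standard error 0.16, adjusted p = 0.495). Rtl1, a retrotransposon-derived gene of the same cluster, had only 6 to 14 counts in a library.

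Zdbf2, a paternally expressed gene whose upstream promoter window holds 3 copies of TGCCGC, was low at 3.89, 3.56 and 2.99 CPM in controls and 4.71, 5.86 and 4.83 CPM in mutants. Its groups did not overlap, and it did not pass (log2 fold change 0.56, standard error 0.18, adjusted p = 0.179). Mest, which encodes a hydrolase-like protein and is a marker of mesoderm, had 212, 195 and 233 CPM in controls and 220, 236 and 287 CPM in mutants (log2 fold change 0.21, standard error 0.12, adjusted p = 0.444). Its overlapping neighbour Copg2, a coat protein gene read from the opposite strand, was lower in each mutant (40.9, 44.1 and 42.7 CPM, then 38.8, 38.2 and 37.5 CPM; log2 fold change -0.16, standard error 0.07, adjusted p = 0.335). The sign for Copg2 was positive with library totals alone (0.045).

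Peg3, a zinc finger gene with a role in growth and maternal behaviour, had 291, 261 and 321 CPM in controls and 209, 261 and 294 CPM in mutants, and the groups overlapped (log2 fold change -0.19, standard error 0.14, adjusted p = 0.575; 0.017 with library totals alone). Zim1, its maternally expressed neighbour, had 19.6, 14.2 and 22.0 CPM in controls and 15.9, 22.7 and 24.3 CPM in mutants (adjusted p = 0.755). Usp29, which shares the Peg3 promoter region, was at 1.56 ± 0.269 and 1.65 ± 0.445 CPM (SD, n = 3, adjusted p = 0.918). Of this cluster, 0 of 3 genes were called.

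Several members varied widely between libraries of a group. Nnat, a paternally expressed gene of a membrane proteolipid, had 10.5, 6.55 and 11.0 CPM in controls and 5.60, 4.29 and 11.5 CPM in mutants, and mutant replicate 5 was the highest of the 6 (adjusted p = 0.688). The antisense RNA Kcnq1ot1, which silences its chromosome 7 domain on the paternal copy, had 54.3, 21.6 and 29.9 CPM in controls and 20.4, 33.3 and 44.3 CPM in mutants (adjusted p = 0.921). Airn, the antisense RNA that silences Igf2r on the paternal copy, had 11.9, 8.01 and 7.51 CPM and 4.44, 5.55 and 8.96 CPM (log2 fold change -0.54, standard error 0.28, adjusted p = 0.433). Both antisense genes overlap a protein-coding gene on the opposite strand, and 14 of the 35 members overlap some annotated gene there. The least variable member was Zrsr1, a splicing factor retrogene, with 17.4 to 18.6 CPM in the 6 libraries; it has an X-linked parent gene of similar sequence, so its estimated counts are uncertain.

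The remaining members did not pass the test, and their groups overlapped. Gnas had 986, 1029 and 1018 CPM in controls and 1005, 918 and 949 CPM in mutants. Cd81 had 285, 314 and 324 CPM in controls and 319, 285 and 271 CPM in mutants. The signs of both were positive with library totals alone (0.13 each). Blcap, a gene that contains Nnat, was at 30.6 ± 1.29 and 31.8 ± 1.17 CPM (SD, n = 3). Impact, a translation regulator gene, was at 31.9 ± 1.95 and 33.6 ± 1.80 CPM, and Nap1l5, a nucleosome assembly gene within an intron of Herc3, at 7.52 ± 1.27 and 8.22 ± 2.84 CPM (SD, n = 3). Slc22a18, a transporter gene, was at 1.65 ± 0.200 and 1.42 ± 0.161 CPM (SD, n = 3). Their adjusted p-values lay between 0.726 and 0.862. Among the 32 tested members, control replicate 3 was the lowest of the 6 libraries for 14 and mutant replicate 5 the highest for 10.

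**Figure D4:**
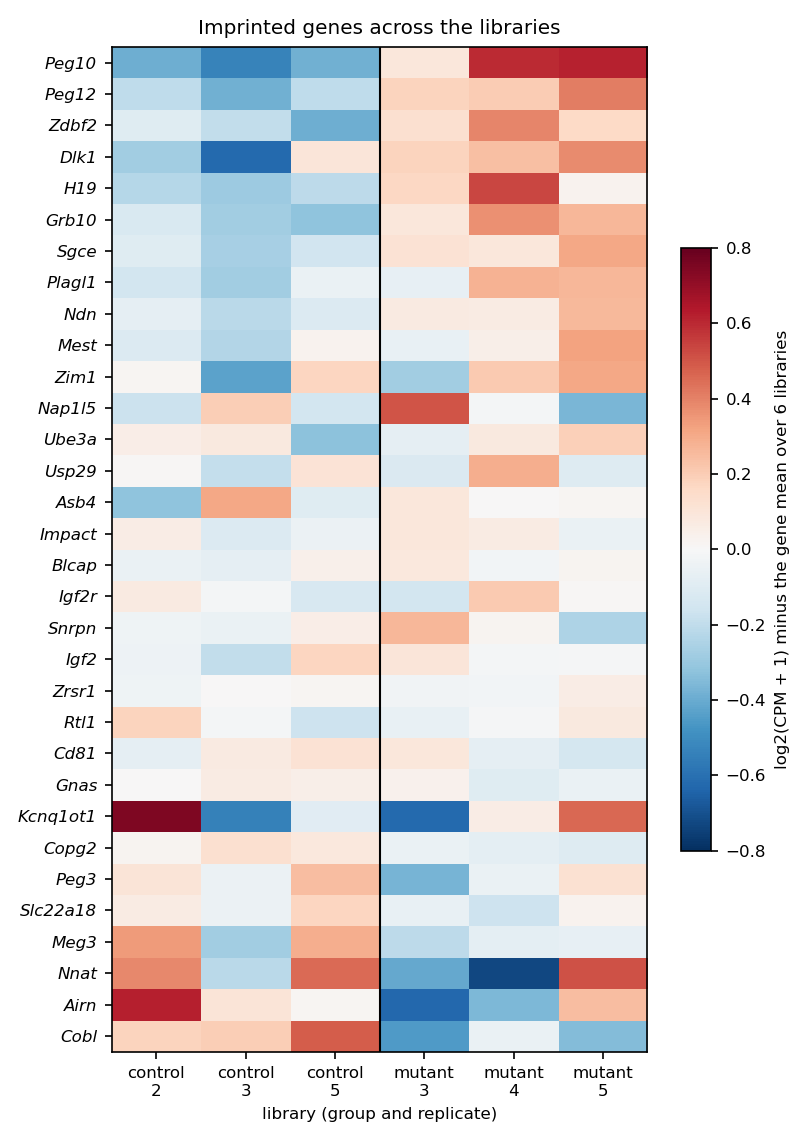
Level of the 32 tested members in each library as log2(CPM + 1) minus the gene's mean over the 6 libraries (colour, cut at 0.8 in either direction), ordered by fold change. Peg10 to Ndn at the top are redder in the mutants apart from Plagl1 in mutant replicate 3, Cobl at the bottom is bluer, and Kcnq1ot1, Nnat and Airn differ more between libraries of a group than between groups.

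Ratios between oppositely imprinted neighbours in the same library do not depend on how libraries are scaled. In all, 6 pairs had at least 10 counts for both genes in every library, and Kcnq1ot1 to Phlda2 was left out because Phlda2 reached 0 counts. For 4 of the 6 pairs the groups did not overlap. Among single genes, 21.3% of all those tested did not overlap. Ratios of other gene pairs were not counted, so no background share is at hand for the pairs. Igf2 counts per H19 count were 1.46, 1.37 and 1.67 in controls and 1.22, 0.874 and 1.25 in mutants, with every mutant below every control (log2 difference -0.44). Dlk1 per Meg3 went from 0.124, 0.147 and 0.170 in controls to 0.257, 0.244 and 0.269 in mutants, the widest separation of the 6 (log2 difference 0.81). Every mutant ratio of this pair was above the highest control.

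Mest per Copg2 was 5.19, 4.40 and 5.45 in controls and 5.67, 6.19 and 7.62 in mutants (log2 difference 0.37). Mest and Copg2 overlap at their ends on opposite strands, and without stated strand information reads of the overlap cannot be told apart. Peg3 per Zim1 was 14.8, 18.4 and 14.6 in controls and 13.1, 11.5 and 12.1 in mutants (log2 difference -0.37). None of the 8 genes of these 4 pairs was itself called. In these libraries the ratio of the paternally to the maternally expressed gene was higher in mutants for Dlk1 to Meg3 and Mest to Copg2 and lower for Igf2 to H19 and Peg3 to Zim1. Each of these 4 had a two-sided exact permutation p = 0.1, the smallest that 3 against 3 libraries allow, and an adjusted p = 0.15 over the 6 pairs, so that this test could not reach the threshold at this number of libraries. Airn to Igf2r (log2 difference -0.61, exact p = 0.3, adjusted 0.3) and Peg10 to Asb4 (log2 difference 0.77, exact p = 0.2, adjusted 0.24) overlapped between the groups. A ratio does not say which gene of the pair differs.

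**Figure D5:**
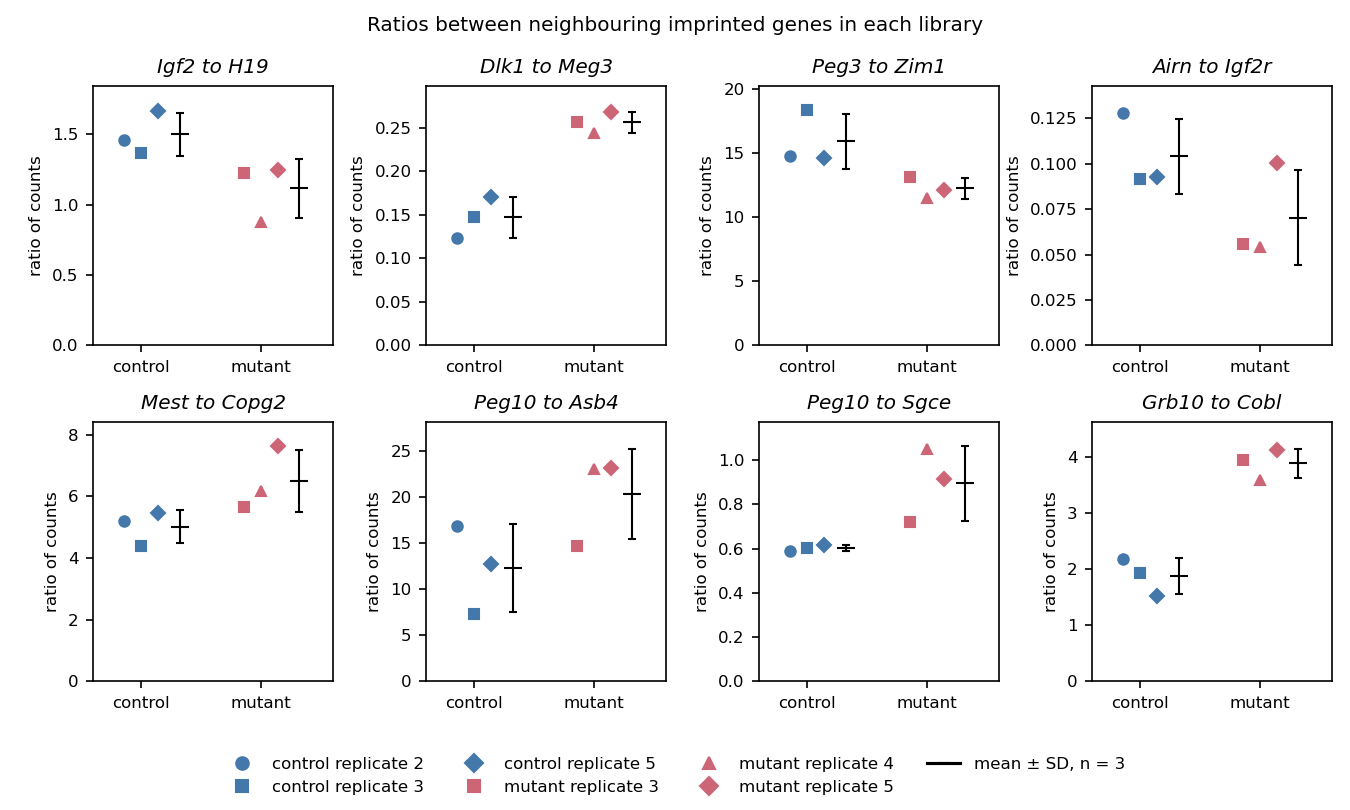
Counts of the first gene per count of the second in each library for 8 pairs of neighbouring imprinted genes (vertical axes start at 0), with the mean and SD of 3 libraries; the last 2 pairs were chosen after their values were seen. Dlk1 to Meg3 and Grb10 to Cobl are higher and Igf2 to H19 and Peg3 to Zim1 lower in every mutant, while Airn to Igf2r and Peg10 to Asb4 overlap.

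Other genes reported as imprinted gave a similar count of calls. Of 51 listed, 44 were in the file and 38 were tested. At an unadjusted p under 0.05, 4 were higher and 2 lower, beside 7.13% and 7.83% of all genes. Of the 38, 1 rose and 0 fell, beside 0.659% and 1.2% of all genes, and the median log2 fold change was 0.04. The riser was Smoc1, a gene of a secreted calcium-binding matrix protein, with 2.09, 2.53 and 2.78 CPM in controls and 5.84, 5.77 and 5.62 CPM in mutants (log2 fold change 1.22, standard error 0.17, adjusted p = 0.0227). Its groups were far apart beside their spread. Cdkn1c, a maternally expressed inhibitor of cyclin-dependent kinases and a described target of Plagl1, had 204, 149 and 176 CPM in controls and 167, 169 and 222 CPM in mutants (adjusted p = 0.866). Of the 12 genes named as Plagl1 targets, 0 were called in either direction (median 0.06). They include the members Igf2, H19, Dlk1 and Mest. At an unadjusted p under 0.05, 2 were higher and 2 lower, and DESeq2 called 1 higher and 2 lower. Over all 17305 genes, DESeq2 called 366 higher and 503 lower.

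Genes that set or keep imprints were not called. Of 23 listed, 19 were tested, with 0 calls in either direction and 0 with DESeq2. The list had 1 unadjusted p under 0.05 (lower) and a median log2 fold change of -0.01. Of all genes, 1.86% were called and 15% had an unadjusted p under 0.05. Zfp57 had 8.95, 5.20 and 11.2 CPM in controls and 5.49, 6.29 and 6.67 CPM in mutants (log2 fold change -0.45, standard error 0.26, adjusted p = 0.474). Of the 20 insulin and IGF genes around Igf2, Igf2r and Grb10, 19 were tested, 1 rose and 0 fell. At an unadjusted p under 0.05, 4 were higher and 3 lower, beside 7.13% and 7.83% of all genes. Igfbp3, which encodes an IGF-binding protein, rose from 364, 437 and 354 CPM to 632, 627 and 537 CPM (log2 fold change 0.64, standard error 0.11, adjusted p = 0.0389). The growth factor gene Igf1 had 219, 170 and 166 CPM in controls and 253, 379 and 272 CPM in mutants, with no overlap, and did not pass (log2 fold change 0.71, standard error 0.17, adjusted p = 0.0966). Igf1r, the receptor gene, was lower in each mutant and did not pass either (257 ± 16.7 and 218 ± 14.4 CPM, SD, n = 3, log2 fold change -0.24, adjusted p = 0.226).

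Hedgehog signalling is named beside Plagl1 in the series title, and some of its readout genes were called where Plagl1 was not; the difference between the genes was not tested. Among them Gas1 rose, Gli1 fell, and Ptch1 and Hhip did not pass. Gas1, a co-receptor gene, rose from 93.5, 90.03 and 67.0 CPM to 129, 140 and 133 CPM (log2 fold change 0.68, adjusted p = 0.0443). Gli1 fell from 91.1, 76.7 and 98.0 CPM to 32.7, 39.8 and 39.3 CPM (log2 fold change -1.25, adjusted p = 0.00753). Ptch1 had 274, 242 and 279 CPM in controls and 152, 209 and 231 CPM in mutants (log2 fold change -0.43, adjusted p = 0.226). Gli1 is also the gene whose regulation drives CreER in the mutants. The effect of this allele itself on Gli1 counts was not tested and cannot be told apart from a change in Hedgehog signalling.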

How the data were processed

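Per the labels, RNA of the apical region of first mandibular molars was sequenced with single-end reads of 75 cycles. STAR 2.6.1d and Partek on mm10 are named in the submitters' processing notes, without their roles; for library kit, strand and annotation the sources used here name nothing. The authors deposited expected counts (estimated per gene, not scaled; 53.8% whole within 0.001) and a normalized signal table of 18665 genes, in which the deposited signal equals the count plus 1 times a factor per library; it was used for alternatives only. Counts were rounded, filtered with filterByExpr (17305 genes), scaled by TMM and tested with edgeR 4.0.16 (R 4.3.3; quasi-likelihood F test, Benjamini-Hochberg over all genes, threshold 0.05). Fold changes are mutant minus control. Positions and exon lengths are from GENCODE M21, which matched all 35 members by chromosome, start, strand and end. Groups are the genotype labels; replicate numbers are those of the titles. The labels speak of 3 pairs of samples but do not say which; only the numbers 3 and 5 occur in both groups, so they are not taken as pairs. Replicates differed by more than counting noise (chi-square per degree of freedom 24.5 to 45.0). Ratios used counts plus 1 and exact permutation tests. Genes with values per library were Plagl1, called members, the 8 with the smallest p, those of the ratios, those of highest level and those with a fold of at least 1.5; Nnat, Kcnq1ot1, Zfp57, Malat1 and Neat1 were chosen after their values were seen. The members, lists and tests were chosen with earlier results of these data known. Alternatives were other scalings (RLE, upper quartile, library totals), filters, DESeq2 1.42.0, limma 3.58.1 (voom, and on log2(value + 1) of the normalized table), a replicate block, each library left out and, chosen after seeing the data, terms for marker levels. Some listed genes are not reported here. The scripts were tested on simulated data.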

Additional observations from a re-analysis of the deposited data

How the results depend on the processing

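Of the 32 tested members, 1 was called higher and 0 lower; 6 were higher with library totals alone (Grb10, H19, Peg10, Peg12, Plagl1 and Sgce), where the members' median was 0.27 and that of all genes 0.21, 4 higher and 1 lower with DESeq2 (Grb10, H19, Peg10 and Peg12, and Cobl), and 2 higher (Grb10 and Peg10) with a CPM filter of at least 1 in 3 libraries or limma on the normalized table. The count was 0 with the replicate block and with the erythroid, epithelial or Xist level as a term, the last 3 chosen after seeing the data. Leaving out 1 library gave 0 to 2 members higher, 2 without mutant replicate 3 and 0 without any other, and a members' median of 0.032 to 0.12, the latter without control replicate 2. Those fits have fewer samples; other causes were not tested.

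Over all genes, 114 were higher and 208 lower, against 411 and 109 with library totals alone, 366 and 503 with DESeq2, 19 and 71 with the replicate block, 0 and 0 with the erythroid term, 0 and 1 with the epithelial term, 26 and 45 with the Xist term, and 1 to 105 and 10 to 138 with a library left out; the 0 counts under the erythroid and epithelial terms thus stand beside at most 1 call over all genes. The deviations of same-numbered libraries from their group means correlated at 0.20 for number 3 and -0.15 for number 5. The contrast in the block fit rests on the libraries with these numbers alone. Arid1a kept its direction but not its call with the block (-0.70), the erythroid term (-0.81) and the epithelial term (-0.69), and ranged from -0.71 to -0.64 with a library left out, called in 4 of 6.

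With library totals alone, 2 other imprinted genes, 3 IGF genes, 1 PLAG gene and 1 Plagl1 target were higher. DESeq2 called 4 IGF genes higher and 1 Plagl1 target higher and 2 lower. The block left 0 other imprinted genes and 0 Hedgehog readouts higher and 1 readout lower. The 3 marker terms left 0 other imprinted, 0 IGF and 0 Hedgehog genes higher, and the erythroid and epithelial terms 0 readouts lower. A library left out gave 0 to 1 other imprinted genes higher, 0 IGF genes and 0 readouts higher, and 0 to 2 readouts lower. The 6 ratios kept their direction in every alternative run on them and moved by less than 1 SD. Airn to Igf2r, -0.61, was -0.30 with the replicate block.

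Signs of members that were never called turned as follows. With library totals alone, Peg3 was 0.017, Rtl1 0.18, Gnas 0.13, Kcnq1ot1 0.084, Copg2 0.045 and Cd81 0.13. With the block, Rtl1 was 0.30, Kcnq1ot1 0.24, Usp29 -0.11 and Asb4 -0.090. With the erythroid term, Igf2r was -0.28, Gnas 0.026, Zim1 -0.11, Ube3a -0.14, Usp29 -0.30, Slc22a18 0.0066 and Cd81 0.092. With the epithelial term, Zrsr1 was -0.037, Ube3a -0.36 and Cd81 0.15. With the Xist term, Rtl1 was 0.00088, Kcnq1ot1 0.080 and Asb4 -0.0014. Rtl1 was 0.0021 with upper-quartile factors, 0.017 with voom and 0.00064 with limma on the normalized table. With a library left out the ranges were -0.14 to 0.43 for Asb4, -0.038 to 0.15 for Igf2, -0.046 to 0.14 for Igf2r, -0.40 to 0.35 for Kcnq1ot1, -0.17 to 0.33 for Nap1l5, -0.22 to 0.29 for Rtl1, -0.11 to 0.18 for Snrpn, -0.15 to 0.21 for Usp29 and -0.022 to 0.028 for Zrsr1. Depth limits Rtl1, Usp29, Asb4 and Slc22a18, each with under 51 counts in every library.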

Other observations

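Of the long noncoding RNAs among the members, Kcnq1ot1, Airn and Meg3 had their highest values in the same libraries, and H19 did not. Control replicate 2 was the highest library for Kcnq1ot1 (54.3 CPM), Airn (11.9 CPM) and Meg3 (84.0 CPM), and mutant replicate 5 was the highest mutant for all 3 (44.3, 8.96 and 63.1 CPM), for Meg3 close to mutant replicate 4 (62.6 CPM). H19 was highest in mutant replicate 4 (537 CPM), lowest among the mutants in replicate 5 (377 CPM) and at 315 CPM in control replicate 2. Malat1, an abundant nuclear RNA chosen after its values were seen, was also highest in control replicate 2 (1052 CPM) and, among the mutants, in replicate 5 (612 CPM). Its other values were 636 and 682 CPM in control replicates 3 and 5 and 432 and 581 CPM in mutant replicates 3 and 4. Neat1, another nuclear RNA, did not follow this order, with 123 CPM in control replicate 2 and 99.5 CPM in mutant replicate 5.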
